A study of Gallus gallus with 4 samples.

Results

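The genes of the DNA damage response and of DNA repair were measured in the chick chorio-allantoic membrane (CAM), the vascular membrane through which the embryo breathes, with and without vascular endothelial growth factor-A (VEGF-A). The set holds 54 genes, chosen by gene symbol, of which 50 had a probe set on the Affymetrix chicken array under that symbol and 47 passed a filter on signal, among 10505 named genes that passed it. No probe set carries the symbols FANCF, FANCM, TIMELESS and XRCC1. Where a gene has several probe sets, the one with the highest mean signal over the 4 arrays represents it. For the VEGF-A group, 3 µg of human recombinant VEGF-A dried on a Thermanox plastic disc lay on the CAM of a chick embryo from day 13 of development, and the tissue under the disc, with its visible new capillaries, was taken 24 h later at day 14. It was therefore picked for its response. The 3 VEGF-A samples, called VEGF CAM 1, 2 and 3, are each the CAM of 1 embryo on 1 array. The control is a pool of RNA from 3 normal CAMs of day 14 on 1 array, so the spread between control CAMs was not measured. The disc is part of the treatment text entered for every sample, while the control is called normal, and whether it carried a disc or solvent is not settled by these sources.

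Cells mend DNA by several routes, and the roles given here are those known from mammals. Homologous recombination copies a broken stretch from the sister chromatid and works mainly in cells that replicate, with the Fanconi pathway removing crosslinks between the strands, while end joining reseals breaks in any phase of the cycle. Mismatch, base excision and nucleotide excision repair take out wrong bases, small base lesions and bulky lesions, and the checkpoint kinases hold the cell cycle while repair goes on. In mammals many genes of recombination, mismatch repair and the checkpoint are transcribed most in cells that enter S phase, whereas nucleotide excision and end joining genes are active in resting cells too.

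The values are linear signal intensities, which the authors had scaled to the same trimmed mean on every array, and each VEGF-A CAM was set against the control pool as a log2 ratio. A gene is called higher or lower when its ratio is past 2-fold in 2 or more of the 3 comparisons. This is the fold part of the rule of the study, which also asked for a detection call of present with VEGF-A, a condition not applied here. Mean log2 ratios are also given with a standard error and adjusted p from limma, fitted over the 22616 probe sets that passed the filter. Its 2 residual degrees of freedom come from the VEGF-A arrays alone, and an exact permutation test of 3 against 1 array has 0.25 as its smallest p. The 3 ratios share the control array. The filter kept probe sets with a mean signal above 11.1. Over all chicken probe sets the control array had a median signal of 19.1 and the VEGF-A arrays one of 15.3 to 17.2. In whole tissue, fewer cells of a type and less RNA per cell cannot be told apart.

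Of the 47 repair genes, 6 were called higher, which is 12.8% of them, against 5.37% of all named genes past the filter. They were RAD54L, EXO1, BLM, BARD1, MSH6 and RAD54B, which act in homologous recombination, in the trimming and unwinding of DNA ends, and in mismatch repair. The control signal of RAD54L, 5.38, lies below the filter value of 11.1, so this gene passed the filter through the VEGF-A arrays alone. It is still counted among the 6 and in the counts that follow. None of the 47 was lower by the rule, against 6.03% of all named genes. RAD54L, EXO1 and BLM were more than 2-fold higher in all 3 comparisons, as were 2.3% of all named genes, and 0 were more than 2-fold lower in all 3, against 1.29%. The other 41 had mean log2 ratios between -1.15 and 0.94, with a median of -0.010. Over all 47 the median was 0.15, beside -0.067 over all named genes, and it was 0.20, 0.086 and 0.23 in VEGF CAMs 1, 2 and 3.

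By limma 0 of the 47 passed an adjusted p of 0.05, as did 0.0% of all named genes, and the adjusted p of the repair genes ran from 0.65 to 1.00. At an unadjusted limma p under 0.05 the same 6 genes were higher, which is 12.8% of the repair genes against 3.98% of all named genes, and 0 were lower against 2.11%. The 3 VEGF-A signals all lay above the control signal for 17 of the 47 genes and all below it for 8, where the shares over all named genes are 24.6% and 29.8%. The calls are narrow. With 32 added to every signal, a step that shrinks the ratios of dim probe sets, 0 of the 47 genes were still called, where the shares of all named genes were 1.34% higher and 0.94% lower. With a CAM left out both remaining ratios had to pass, so these counts follow from the 3 ratios of each gene. Then 3 genes were called without VEGF CAM 2 (RAD54L, BLM and EXO1), 4 without VEGF CAM 1 (these and RAD54B) and 5 without VEGF CAM 3 (all but RAD54B). The shares of all named genes were smaller too, 3.71%, 3.01% and 3.26% higher in that order. With each array centred on its median, 9 of the 47 were higher and 0 lower, against 8.96% and 3.50% of all named genes, and after quantile normalization 6 and 0, against 6.48% and 4.49%.

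RAD54L, a motor protein that helps the invading strand find its partner in homologous recombination, had signals of 5.38 for the pool and 18.3, 30.5 and 23.8 for VEGF CAMs 1 to 3. Its control signal lies below the filter value of 11.1, so that RAD54L passed the filter through the VEGF-A arrays alone. Its mean log2 ratio of 2.14 (SE 0.70, adjusted p = 0.69 by limma) rests on that dim control. With 32 added to every signal it was 0.58, below BLM at 1.11 and BARD1 at 0.89. RAD54B, its relative, had 39.1 for the pool and 60.1, 84.6 and 89.6 for VEGF CAMs 1 to 3. All 3 VEGF-A signals were above the control, with VEGF CAM 1 short of 2-fold, and the mean log2 ratio was 0.98 (SE 0.40, adjusted p = 0.77 by limma). BARD1, the partner of BRCA1 in a ubiquitin ligase, had 72.1 for the pool and 195, 167 and 127 for VEGF CAMs 1 to 3. VEGF CAM 3 was here the nearest to the control, and the mean log2 ratio was 1.15 (SE 0.38, adjusted p = 0.69 by limma).

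**Figure D1:**
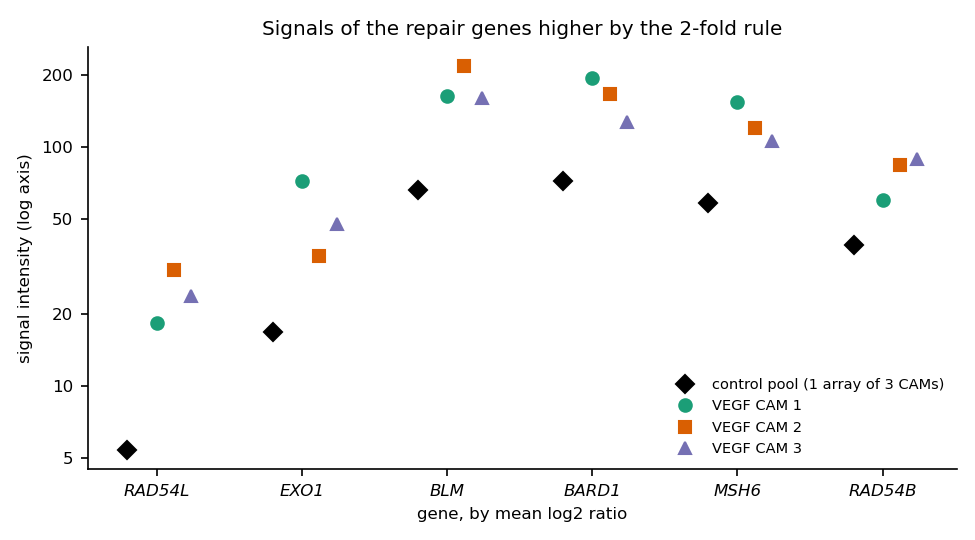
Signal intensity (log axis) of the 6 repair genes called higher by the 2-fold rule, with the control pool as a black diamond and VEGF CAMs 1, 2 and 3 as coloured symbols, 1 array each. All 18 VEGF-A signals lie above the control signal of their gene, and the control signal of RAD54L (5.38) is the lowest plotted.

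Further genes of homologous recombination were not called. BRCA1, which directs breaks to recombination, had 175 for the pool and 346, 199 and 289.7 for VEGF CAMs 1 to 3, so that all VEGF-A signals were above the control and none reached 2-fold, with a mean log2 ratio of 0.63 (SE 0.40, adjusted p = 0.86 by limma). RAD52, which anneals single strands, had 29.7 for the pool and 53.8, 40.3 and 69.6 for VEGF CAMs 1 to 3, and only VEGF CAM 3 passed 2-fold. For BRCA2, which loads the strand exchange protein, the mean log2 ratio was 0.25 (SE 0.36, adjusted p = 0.89 by limma). PALB2, which links BRCA1 to BRCA2, had log2 ratios of -0.13, 0.38 and -0.48 and RAD51AP1, a helper of strand invasion, of -0.36, -0.44 and 0.27, so that both had ratios on either side of the control. Among the paralogs of the strand exchange protein, RAD51B had a mean log2 ratio of 0.043 and RAD51C one of -0.86 (SE 0.58, adjusted p = 0.86 by limma). The signals of RAD51C were 32.4 for the pool and 16.9, 15.3 and 21.8 for VEGF CAMs 1 to 3, all 3 below the control, and only VEGF CAM 2 was so by more than 2-fold. Of the 11 genes of this route past the filter, 3 were higher by the rule and 0 lower, against 5.37% and 6.03% of all named genes. The 3 include RAD54L with its dim control. The median log2 ratio of the 11 genes was 0.25.

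BLM, a helicase that unwinds recombination intermediates, had signals of 66.2 for the pool and 164, 219 and 161 for VEGF CAMs 1 to 3. Each VEGF-A signal was over 2-fold above the control and the 3 lay close together, so that BLM had the lowest p of the 47 genes, with a mean log2 ratio of 1.44 (SE 0.36, adjusted p = 0.65 by limma) and an unadjusted limma p of 0.0048. EXO1, an exonuclease that trims break ends and also removes the strand with a mismatch, had 16.9 for the pool and 72.2, 35.0 and 47.4 for VEGF CAMs 1 to 3. The VEGF-A signals of EXO1 were farther apart, 1.05 on the log2 scale between the highest and the lowest, and the mean log2 ratio was 1.55 (SE 0.51, adjusted p = 0.69 by limma). The complex that first binds a break end had no member past 2-fold in any comparison. RAD50 had 65.2 for the pool and 93.5, 115 and 78.2 for VEGF CAMs 1 to 3, MRE11, its nuclease, had log2 ratios of 0.21, 0.035 and 0.26, and NBN, which recruits the kinase ATM, of -0.52, -0.81 and 0.027. WRN, a helicase of the same family as BLM, had at its brightest probe set signals of 63.9 for the pool and 35.2, 47.3 and 21.2 for VEGF CAMs 1 to 3, each below the control, with a mean log2 ratio of -0.96 (SE 0.53, adjusted p = 0.85 by limma). Of these 6 genes 2 were higher by the rule and 0 lower, against 5.37% and 6.03% of all named genes.

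Of the 7 genes of the Fanconi pathway past the filter 0 were called, against 5.37% higher and 6.03% lower of all named genes. So few genes cannot show a difference from these shares. FANCL, the ubiquitin ligase of the core complex, had signals of 97.0 for the pool and 156, 157 and 131 for VEGF CAMs 1 to 3. Its 3 VEGF-A signals were alike and all above the control, with a mean log2 ratio of 0.60 (SE 0.34, adjusted p = 0.85 by limma) and a 95% interval from -0.20 to 1.40. FANCA, a scaffold subunit of the same complex, had 46.4 for the pool and 29.2, 23.6 and 28.9 for VEGF CAMs 1 to 3, all below the control, with a mean log2 ratio of -0.77 (SE 0.45, adjusted p = 0.85 by limma). Its other probe set past the filter had a mean log2 ratio of -0.14, with VEGF CAM 1 above the control. FANCB had a mean log2 ratio of -0.67, FANCC of -0.10, FANCE of 0.47 and FANCG of 0.44, all subunits of the core complex, and FANCI, which the complex marks with ubiquitin, of 0.069. FANCD2, the partner of FANCI, did not pass the filter, with 0.823 for the pool and 3.54, 7.12 and 12.8 for VEGF CAMs 1 to 3. All 3 of its VEGF-A signals were above the control, but the control signal is under 3.12, the 20th percentile of all chicken signals, so no fold is given. The 7 genes past the filter had a median log2 ratio of 0.069 and ranged from -0.77 to 0.60.

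**Figure D2:**
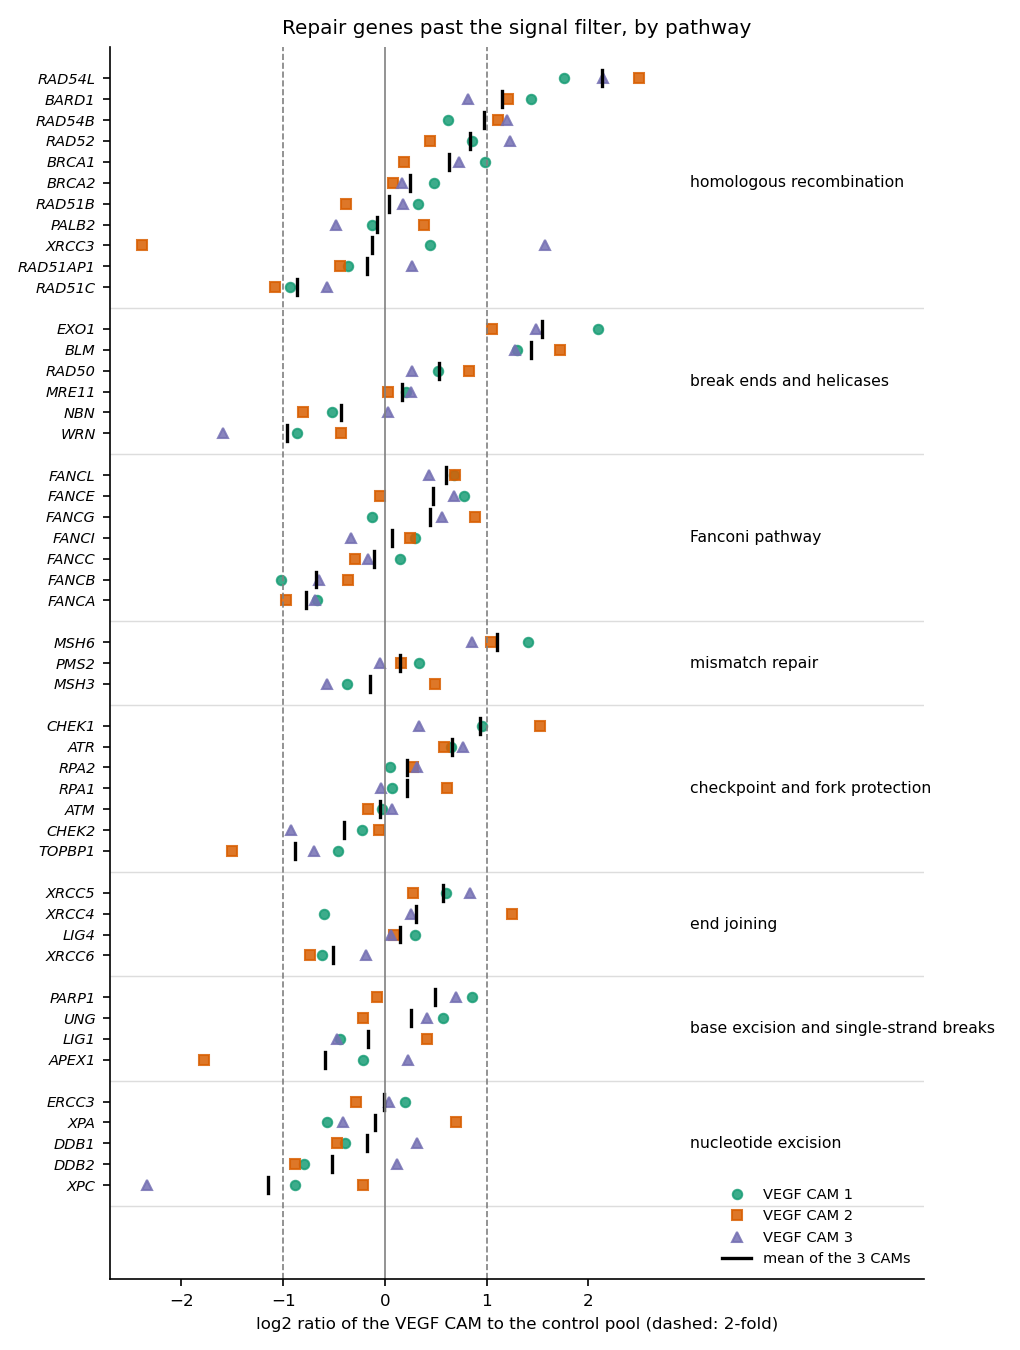
Log2 ratio of VEGF CAMs 1, 2 and 3 to the control pool (coloured symbols) and their mean (black bar) for the 47 repair genes past the signal filter, grouped by repair pathway, with 2-fold as dashed lines. The 6 called genes lie in homologous recombination, break ends and helicases, and mismatch repair, and XRCC3, APEX1, XRCC4 and XPC show the widest gaps between CAMs. The groups are too small to show that calls differ between pathways.

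MSH6, which recognises single mismatched bases, had signals of 58.4 for the pool and 155, 120.2 and 106 for VEGF CAMs 1 to 3, and the mean log2 ratio was 1.10 (SE 0.37, adjusted p = 0.69 by limma). A further probe set of MSH6 past the filter went from 23.5 to 50.4, 62.9 and 32.7, also over 2-fold in 2 comparisons, with a mean log2 ratio of 1.00 (SE 0.49, adjusted p = 0.85 by limma). MSH3, which recognises larger loops, had 72.4 for the pool and 55.9, 102 and 48.8 for VEGF CAMs 1 to 3 and a mean log2 ratio of -0.15 (SE 0.49, adjusted p = 0.95 by limma), with VEGF CAM 2 above the control and VEGF CAMs 1 and 3 below it. For PMS2, the nuclease that nicks the strand to be replaced, the log2 ratios were 0.34, 0.16 and -0.044. MSH6 was thus the called gene among these 3, where 5.37% of all named genes were higher. The log2 ratio of MSH6 exceeded that of MSH3 by 1.78, 0.55 and 1.43 in VEGF CAMs 1, 2 and 3.

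CHEK1, the kinase that stops the cycle when replication forks stall, had signals of 62.6 for the pool and 121, 179.8 and 78.8 for VEGF CAMs 1 to 3. All VEGF-A signals were above the control but only VEGF CAM 2 was so by more than 2-fold, and the mean log2 ratio was 0.94 (SE 0.49, adjusted p = 0.85 by limma). ATR, the kinase that activates CHEK1, had 36.3 for the pool and 56.8, 54.1 and 61.6 for VEGF CAMs 1 to 3. The 3 VEGF-A signals of ATR were the closest together of the 47 genes, 0.19 apart on the log2 scale, and the mean log2 ratio was 0.66 (SE 0.37, adjusted p = 0.85 by limma), with a 95% interval from -0.21 to 1.54. In the branch that answers to breaks, ATM had log2 ratios of -0.028, -0.17 and 0.067 and its target CHEK2 of -0.22, -0.057 and -0.92. TOPBP1, an activator of ATR, had 35.6 for the pool and 25.9, 12.6 and 22.0 for VEGF CAMs 1 to 3, all below the control, and a mean log2 ratio of -0.88 (SE 0.62, adjusted p = 0.86 by limma). RPA1 and RPA2, subunits of the protein that coats single strands, had bright signals and mean log2 ratios of 0.21 and 0.22. CLSPN, which hands the signal from ATR to CHEK1, stayed below the filter with 8.32 for the pool and 9.76, 0.846 and 3.05 for VEGF CAMs 1 to 3. At the brightest probe sets 0 of the 7 genes past the filter were called, against 5.37% higher and 6.03% lower of all named genes. So few genes cannot show a difference from these shares.

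End joining held 0 called genes of 4, against 5.37% higher and 6.03% lower of all named genes, and so few genes cannot show a difference. XRCC5 and XRCC6, subunits of the ring that caps a broken end, had mean log2 ratios on opposite sides of the control, 0.57 (SE 0.37, adjusted p = 0.86 by limma) for XRCC5 and -0.51 (SE 0.39, adjusted p = 0.86 by limma) for XRCC6. XRCC5 had signals of 93.0 for the pool and 141, 113 and 166 for VEGF CAMs 1 to 3, and XRCC6 had 101 for the pool and 65.8, 60.7 and 88.7 for VEGF CAMs 1 to 3. No VEGF-A signal of XRCC5 was below the control and none of XRCC6 above it, at these probe sets. The log2 ratio of XRCC5 exceeded that of XRCC6 by 1.22, 1.02 and 1.02 in VEGF CAMs 1, 2 and 3, but a dimmer probe set of XRCC5 went from 29.8 to 17.1, 41.0 and 9.54, and averaged over its probe sets XRCC5 turned to -0.044. XRCC4, the partner of the ligase LIG4, had 50.8 for the pool and 33.6, 121 and 60.7 for VEGF CAMs 1 to 3, with VEGF CAM 1 below the control and VEGF CAM 2 over 2-fold above it. A dimmer probe set of XRCC4 past the filter had log2 ratios of -1.73, 0.16 and -0.28 (mean -0.61), so VEGF CAM 2 was not past 2-fold there. LIG4 had log2 ratios of 0.30, 0.086 and 0.057.

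Base excision repair held 0 called genes of 4 at the brightest probe sets. Over all named genes 5.37% were higher and 6.03% lower, and so few genes cannot show a difference. PARP1, which senses nicks and makes poly(ADP-ribose), had 269 for the pool and 487, 255 and 438 for VEGF CAMs 1 to 3, and UNG, which removes uracil from DNA, had 199 for the pool and 296, 171 and 264 for VEGF CAMs 1 to 3. In both genes VEGF CAMs 1 and 3 were above the control and VEGF CAM 2 below it. The mean log2 ratio was 0.49 (SE 0.43, adjusted p = 0.87 by limma) for PARP1 and 0.26 (SE 0.40, adjusted p = 0.90 by limma) for UNG. APEX1, which cuts the strand where a base is missing, had 49.9 for the pool and 43.1, 14.6 and 58.5 for VEGF CAMs 1 to 3. VEGF CAM 2 set its mean of -0.58 (SE 0.76, adjusted p = 0.88 by limma), which was 0.010 without that CAM. LIG1, the ligase of replication, had log2 ratios of -0.44, 0.42 and -0.47.

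Of the 5 genes of nucleotide excision repair 0 were called, against 5.37% higher and 6.03% lower of all named genes. So few genes cannot show a difference from these shares. At their brightest probe sets all 5 had a mean log2 ratio below 0, with a median of -0.18. This sign depends on the scaling, since with each array centred on its median ERCC3 (0.24), XPA (0.16) and DDB1 (0.075) lay above 0 and the median was 0.075, while after quantile normalization it was -0.21. ERCC3, a helicase of the factor that opens the helix around a lesion, had 783 for the pool and 902, 646 and 808 for VEGF CAMs 1 to 3. Its mean log2 ratio of -0.010 (SE 0.32, adjusted p = 1.00 by limma) had a 95% interval from -0.75 to 0.73. XPA, which checks the lesion, had 1158 for the pool and 779, 1880.4 and 871 for VEGF CAMs 1 to 3, with VEGF CAM 2 above the control and the others below it. XPC, which finds the lesion, had 59.8 for the pool and 32.5, 51.5 and 11.8 for VEGF CAMs 1 to 3, all below the control and VEGF CAM 3 by the most, with a mean log2 ratio of -1.15 (SE 0.78, adjusted p = 0.86 by limma). The other probe sets of XPC past the filter had mean log2 ratios nearer to the control, -0.29 and -0.51. DDB1 and DDB2, which together bind ultraviolet damage, had mean log2 ratios of -0.18 and -0.52. For both, VEGF CAMs 1 and 2 were below the control and VEGF CAM 3 above it at the brightest probe sets. The other probe sets of DDB1 past the filter did not share this pattern. Their log2 ratios were 0.45, -0.15 and -0.16 (mean 0.047) and -2.65, 0.24 and -0.53 (mean -0.98) in VEGF CAMs 1, 2 and 3.

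The result for a gene often turned on the probe set. Of the 47 genes, 16 had more than 1 probe set past the filter, and in 8 of them the probe sets had mean log2 ratios on both sides of 0, against 49.97% of 4433 named genes with several probe sets. Among the 20 dimmer probe sets that passed the filter, 5 were higher by the 2-fold rule and 0 lower, against 6.79% and 9.25% of all probe sets past the filter. The dimmer probe set of PARP1 went from 98.9 to 329, 241 and 213, each over 2-fold, with a mean log2 ratio of 1.37 (SE 0.37, adjusted p = 0.68 by limma), while its brightest had VEGF CAM 2 below the control. For BRCA1 the second brightest went from 33.0 to 80.6, 80.4 and 76.3, also over 2-fold in each CAM, with a mean log2 ratio of 1.26 (SE 0.35, adjusted p = 0.69 by limma). WRN had probe sets that went opposite ways. Its second brightest of 3 went from 16.7 to 40.5, 36.9 and 39.4, with a mean log2 ratio of 1.22, against -0.96 at the brightest. Averaged over the probe sets WRN turned to 0.086.

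The other probe set of RPA2 went from 37.4 to 90.6, 70.3 and 57.3, over 2-fold in VEGF CAM 1 only, with a mean log2 ratio of 0.93 against 0.22 at the brighter one. That of CHEK2 went from 4.79 to 25.9, 10.6 and 5.34, called higher over a dim control with a standard error of 1.38. Its control signal lies below the filter value of 11.1, and only VEGF CAM 1 lay above that value, so that it passed through the VEGF-A arrays alone. It is still counted among the higher dimmer probe sets above and the 10 genes below. In the other direction, the second probe set of CHEK1 had a mean log2 ratio of -0.22 against 0.94. RAD50, MRE11 and MSH6 had the smallest gaps between their probe sets, from 0.062 to 0.10 on the log2 scale. With any probe set past the filter allowed to make the call, a choice made after the values had been seen, 10 of 47 genes were higher and 0 lower, against 9.92% and 11.9% of all named genes. The files do not say which part of the transcript a probe set reads.

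**Figure D3:**
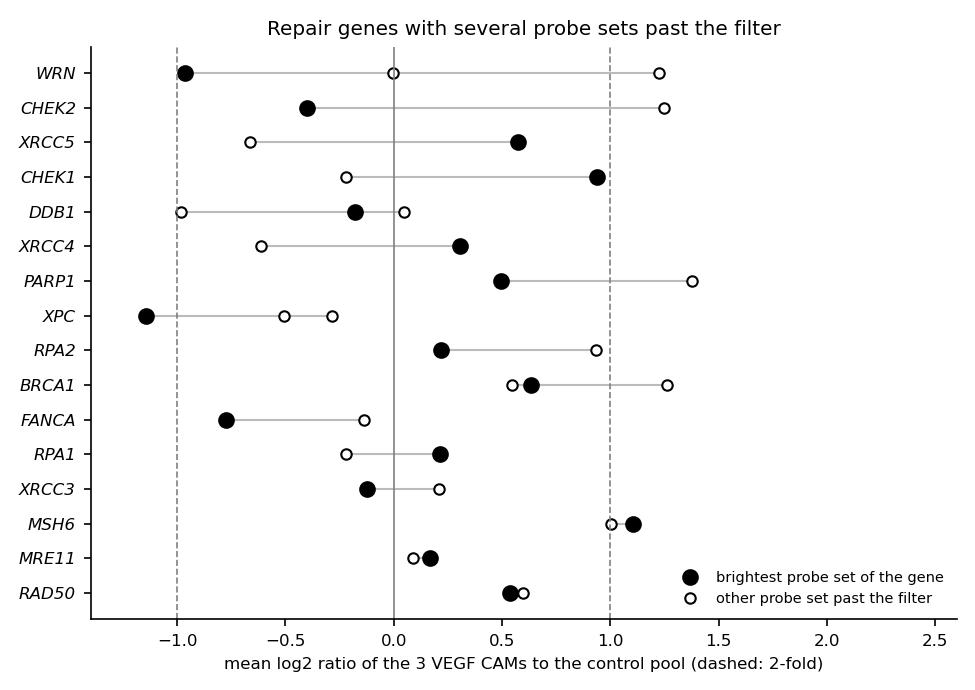
Mean log2 ratio of the 3 VEGF-A CAMs to the control pool for each probe set past the filter, for the 16 repair genes with more than 1 such probe set, ordered by the gap between them, with the brightest probe set filled and 2-fold as dashed lines. WRN and CHEK2 have the widest gaps (2.19 and 1.65), and RAD50, MRE11 and MSH6 the narrowest.

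A total of 26 probe sets of these genes lay below the filter, and 22 of them had a signal under 3.12 on at least 1 array. By the rule 7 of the 26 would be higher and 5 lower. The share over all probe sets below the filter was not counted, so no result is read from these counts. Calls were more frequent without the filter, at 8.16% higher and 10.7% lower of all named genes, against 5.37% and 6.03% with it. BRIP1, a helicase that binds BRCA1, had only such probe sets, and they went opposite ways. The first went from 0.358 to 0.334, 8.03 and 5.24, and the other from 9.66 to 1.06, 0.470 and 1.23. A probe set of FANCB went from 1.15 to 9.80, 14.3 and 13.2, while its probe set past the filter had all VEGF-A signals below the control. No level is read from these signals.

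The VEGF-A CAMs differed among themselves. The range of a gene over the 3 CAMs, which does not depend on the control array, exceeded 2-fold for 12 of the 47 genes (25.5%), close to the 26.8% of all named genes. It was widest for XRCC3, a paralog of the strand exchange protein, with 143 for the pool and 194, 27.4 and 426 for VEGF CAMs 1 to 3. The other probe set of XRCC3 went from 164 to 253, 120.2 and 225, and VEGF CAM 2 was the lowest VEGF-A array at both. XPC, APEX1 and XRCC4 followed, with ranges of 2.12, 2.00 and 1.85 on the log2 scale. Among the 6 called genes only EXO1 had a range over 2-fold, and BLM had the narrowest of them, 0.44. VEGF CAM 2 was more than 2-fold above the mean of VEGF CAMs 1 and 3 for 3 genes (XRCC4, XPC and XPA) and more than 2-fold below it for 2 (XRCC3 and APEX1), where 6.81% and 7.69% of all named genes were so. By single comparison, 5, 8 and 6 repair genes were over 2-fold higher in VEGF CAMs 1, 2 and 3 and 1, 4 and 2 over 2-fold lower. Of all named genes 6.84%, 6.76% and 6.04% were higher and 9.6%, 10.1% and 7.34% lower.

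**Figure D4:**
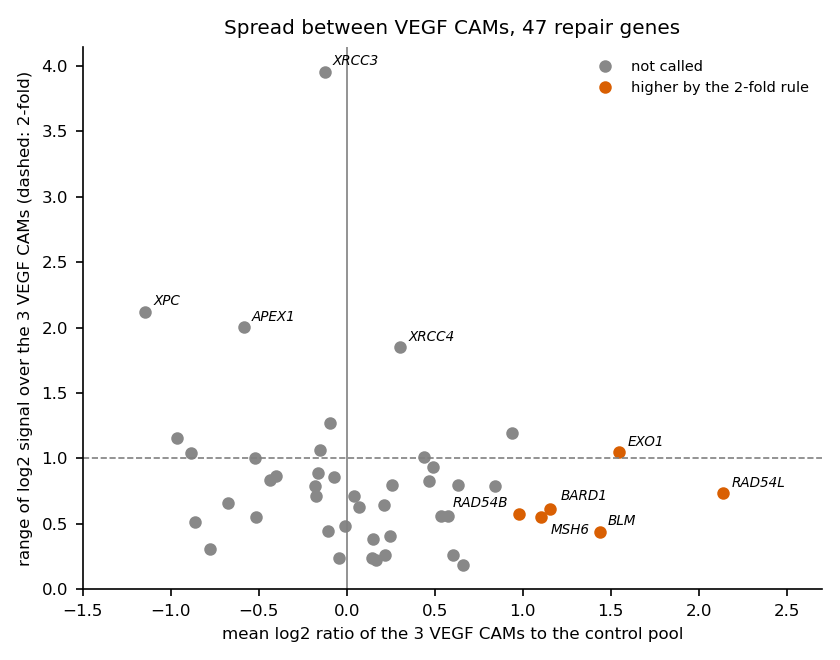
Range of the log2 signal over the 3 VEGF-A CAMs against the mean log2 ratio to the control pool for the 47 repair genes past the filter, with the 6 called genes in orange and a 2-fold range as a dashed line. XRCC3 has the widest range (3.96), and of the called genes only EXO1 lies above the dashed line.

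Genes of partner proteins, and of kinases in separate checkpoint branches, did not always have like ratios. The pairs were chosen with the values known and are a description. ATR had a log2 ratio above that of ATM by 0.68, 0.75 and 0.70 in VEGF CAMs 1, 2 and 3, and CHEK1 above CHEK2 by 1.18, 1.58 and 1.26 at the brightest probe sets. Such differences within an array do not change when an array is multiplied by a constant, but the other probe sets of CHEK1 and CHEK2 go against this order. BARD1 exceeded BRCA1 in all 3 CAMs at the brightest probe sets, with a mean difference of BRCA1 minus BARD1 of -0.52 ± 0.47 (SD, n = 3 CAMs). The second brightest probe set of BRCA1 lay above BARD1 in VEGF CAMs 2 and 3 and in the mean, at 1.26 against 1.15. At the brightest probe sets RPA1 and RPA2 were nearly equal in the mean, and the sign of their difference changed among the CAMs. At their other probe sets past the filter they were apart, with mean log2 ratios of -0.22 for RPA1 and 0.93 for RPA2. All 3 VEGF-A signals lay below the control at that probe set of RPA1.

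Of the repair genes, 7 are also in a list of G1/S genes that is widely used to score the cell cycle of human cells (UNG, RPA2, RAD51AP1, EXO1, BLM, CLSPN and BRIP1). The 5 of them past the filter had a median log2 ratio of 0.26 and 2 were higher by the rule, against a median of 0.056 and 4 of 42 for the others. EXO1 and BLM are the 2, while RAD51AP1 had a mean log2 ratio of -0.18. Over all named genes past the filter the share called higher was 5.37%. Among 78 further genes of repair and the damage response, 64 passed the filter, each read at its brightest probe set only. By the rule 1 was higher and 1 lower, against 5.37% and 6.03% of all named genes. The median log2 ratio was 0.0029. At an unadjusted limma p under 0.05 there were 0, against 3.98% of all named genes higher and 2.11% lower. The higher gene was MLH3, a mismatch repair protein best known from meiosis, which went from 8.25 to 22.8, 13.8 and 18.5 with a mean log2 ratio of 1.12 (SE 0.76, adjusted p = 0.86 by limma). Its control signal also lies below the filter value of 11.1, so that it passed only through the VEGF-A arrays. The lower gene was RBBP8, which starts the trimming of break ends, from 46.9 to 19.8, 40.4 and 21.0 with a mean log2 ratio of -0.87 (SE 0.56, adjusted p = 0.86 by limma). The paper lists USP1, a gene of this list, among those raised past 2-fold by VEGF-A, from the same 4 arrays. The mean fold it gives for USP1 is larger than the one found here. Here the brightest probe set of USP1 went from 253 to 340, 312 and 316 and was not called. Its mean log2 ratio was 0.35 (SE 0.31, adjusted p = 0.87 by limma), a mean fold of 1.28. The paper may have read another probe set of USP1, which was not checked here.

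Genes of dividing cells and of vessels were higher beside the called repair genes, and their part in these results was not tested. The shares over all named genes past the filter were 5.37% higher and 6.03% lower. Of 7 MCM genes past the filter 4 were higher by the rule, MCM2, MCM3, MCM5 and MCM6, which are subunits of the replicative helicase. The list median was 1.00. MCM8, MCM10 and MCMBP, which are not such subunits, were not called, and no probe set carries the symbols MCM4 and MCM7. MCM8 had all 3 VEGF-A signals below the control, with a mean log2 ratio of -0.44, while MCM10 and MCMBP had means of 0.71 and 0.39. Of 20 mitosis genes 17 were higher with a median of 1.31. The summed signal went from 849 in the control pool to between 1617 and 1731 for the MCM genes and from 3811 in the control pool to between 8137 and 10275 for mitosis. Of 17 blood endothelial markers 15 were higher, with a median of 1.24 and a summed signal from 4556 in the control pool to between 6062 and 11811, lowest of the VEGF-A arrays in VEGF CAM 2. Red blood cell genes had 3 of 7 higher and a median of 0.83, with a sum from 27443 in the control pool to between 24418 and 38247. Of the genes counted as higher, red blood cell HBZ (3.78) and endothelial PTPRB (9.57) had control signals below the filter value of 11.1. Both passed the filter only through the VEGF-A arrays. Fibroblast and smooth muscle genes had 2 of 12 higher, 1 lower and a median of 0.49, with a sum from 26484 in the control pool to between 35485 and 49989. Of 12 epithelial markers 0 were higher and 1 lower, with a median of -0.19 (0.068 after centring) and a sum from 65236 in the control pool to between 43522 and 66551. Of 11 leukocyte genes 0 were called, with a median of -0.40 and a sum from 3929.8 in the control pool to between 2332 and 4216. The counts for the epithelial and leukocyte lists, and the lower fibroblast gene, are near the shares over all named genes. Nothing is read from them. None of these list genes passed a limma adjusted p of 0.05. Markers of the tissue were present on all 4 arrays, with signals of 9059 to 17058 for epithelial EPCAM and 875 to 2757 for endothelial CDH5. The repair genes' median of 0.15 stood below those of the MCM and mitosis lists. The difference was not tested.

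Signs of RNA quality also differed between the arrays, whose cRNA was made by the small sample protocol of the maker. The signal at the 3′ end over that at the 5′ end, which grows as RNA breaks down, was 24.2 for actin for the pool and 15.5, 19.7 and 22.9 for VEGF CAMs 1 to 3. For GAPDH it was 67.0 for the pool and 43.2, 58.0 and 66.9. For the elongation factor EF1a it was 8.74 for the pool and 5.74, 6.65 and 7.38. The control array had the highest ratio of the 4 for all 3 genes. Its part in the ratios of the repair genes was not tested.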

How the data were processed

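The 4 Affymetrix chicken arrays hold CAM RNA, 3 from single CAMs after 24 h with 3 µg of VEGF-A and 1 from the pooled controls. The authors deposited 1 linear signal intensity per probe set and array, scaled so that every array has a 2% trimmed mean of 100.0, and the submitters' processing notes name GCOS 1.2. Since the study's detection calls were not used here, dim probe sets were removed by their signal. The genome build behind the array is not given in the sources used here, so no coordinates are given. All 4 value columns were used.

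The array has 38535 probe sets, 37693 of them for chicken, and the 22616 with a mean signal above the 40th percentile were kept. Genes were named from the platform table, and all 50 repair genes on the array have a gene of that symbol in RefSeq (assembly GRCg7b). Means of log2 ratios were tested in R 4.3.3 with limma 3.58.1, using a variance trend (prior degrees of freedom 5.23) and Benjamini-Hochberg adjustment over all 22616 probe sets. The 2-fold rule asked for a ratio over 2 in at least 2 of 3 comparisons. The functions were tested on simulated data. Figures were drawn in Python 3.11.15 with matplotlib 3.10.9.

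The repair genes, the other gene lists and the tests were chosen with earlier results of these data known. Values on all arrays are given for each called gene and for the genes of highest and lowest mean log2 ratio in each pathway, and others named were added after their values were seen. Gene lists are described by counts and medians. Alternatives changed the scaling (quantile or median centring), the low signals (20th percentile floor, offset of 32, a filter at the 60th percentile or none), the probe set, the variance trend and the CAMs used. The labels do not say whether the CAMs come from separate batches of eggs, so p-values cannot be taken to cover a spread between batches. They rest on the spread between these 3 CAMs, drawn toward the trend over all probe sets. They also take the control array to vary like a VEGF-A array. The number of arrays limits the precision. Promoter and protein sequences were not analysed here.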

Additional observations from a re-analysis of the deposited data

How the results depend on the processing

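The count of repair genes higher by the 2-fold rule stayed between 5 and 9 under quantile normalization, centring, the floor, either change of filter and the mean of probe sets, against 6. With the stricter filter it was 5 of 40 genes, against 4.03% of all named genes. Without a filter it was 8 of 50, against 8.16%, and the added genes BRIP1 and FANCD2 had control signals of 0.358 and 0.823. The count was 0 with an offset of 32 added to every signal and 10 with any probe set allowed to make the call, an alternative chosen after seeing the data. Leaving out a VEGF-A CAM gave between 3 and 5, where both remaining ratios had to pass. RAD54L, BLM and EXO1 were called whichever CAM was left out, BARD1 and MSH6 only without VEGF CAM 3, and RAD54B only without VEGF CAM 1. This restates which ratios of each gene were past 2-fold and is no further test. The stricter filter removed RAD54L. The count of lower genes was 0 except without a filter, where it was 1 (CLSPN, at dim signals), against 10.7% of all named genes. The limma count was 0 in every fit run, while at an unadjusted p it lay between 4 and 10. The median log2 ratio of the repair genes was 0.15, between 0.071 and 0.17 when a CAM was left out, 0.069 as the mean of probe sets and 0.40 with each array centred on its median. That step raised the median of all named genes from -0.067 to 0.19. It moves the mean log2 ratio of every gene by the same amount, so the 0.21 by which the repair genes stood above it could not change. This gap was 0.21 with the floor, 0.16 after quantile normalization, 0.14 with the offset, 0.24 without a filter and 0.20 with the stricter one. Without VEGF CAM 1, 2 and 3 it was 0.12, 0.20 and 0.23. Among the 19 genes followed through the alternatives, 8 of 187 values changed sign. These were ERCC3 at 0.0090 after quantile normalization and 0.24 after centring, MSH3 at 0.11 after centring, WRN at 0.086 and XRCC5 at -0.044 as the mean of probe sets, and 3 values with a CAM left out. For the latter the range was -0.99 (without VEGF CAM 3) to 0.010 (without VEGF CAM 2) for APEX1, -0.12 (without VEGF CAM 1) to 0.12 (without VEGF CAM 2) for ERCC3, and -0.47 (without VEGF CAM 2) to 0.061 (without VEGF CAM 3) for MSH3. The cause was not tested. No paired analysis was possible because the control is 1 pooled array with no replicate number to share. The motif search in promoters was not run.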
